A study of Mus musculus with 14 samples.

Results

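Succinate is made and used by a small set of mitochondrial enzymes, and 10 of their genes were followed in ileum mucosa from WT mice and from IKO mice. The genes were chosen by name from the 54532 genes of the count table. They are the subunit genes of succinate dehydrogenase (Sdha, Sdhb, Sdhc and Sdhd), 3 of its assembly factors (Sdhaf1, Sdhaf2 and Sdhaf4) and the subunit genes of succinyl-CoA ligase (Suclg1, Suclg2 and Sucla2). The study asked how loss of the nuclear receptor corepressor NCoR1 in intestinal epithelial cells (IECs) changed the ileum on a high fat diet (HFD). Both groups were male, carried the floxed NCoR1 gene (NCoR1 flox/flox) and were fed the HFD for 15 weeks. The study's methods give an age of 7 to 8 weeks at the start. A figure legend of the study gives an older age, with a period of chow before the HFD. The 7 WT mice had no Cre. The 7 IKO mice also carried a Cre recombinase driven by the villin promoter, which acts in IECs. RNA came from scraped mucosa, with 1 library per mouse. The labels call the cells IECs, and 9 enterocyte markers summed to at least 22170 CPM (scaled as given below) in each of the 14 libraries, though Fabp6 was as low as 24.7 CPM and Slc10a2 as low as 39.8 CPM in single mice, and the scrapings also held transcripts of other cells.

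Succinyl-CoA ligase releases succinate from succinyl-CoA in the tricarboxylic cycle and makes GTP or ATP as it does so. Succinate dehydrogenase, which is also complex II of the respiratory chain, oxidizes succinate to fumarate and passes the electrons to ubiquinone. The absorptive cells of the gut are rich in mitochondria, and succinate that leaves the mitochondrion can act as a signal through a receptor on the cell surface.

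Between 14749669 and 21557468 reads per mouse were counted on genes. The share of reads on mitochondrially encoded genes was 50.3% in IKO 4, 23.9% in WT 3 and 3.49% to 10.3% in the other mice. The summed level of 6 smooth muscle markers was 10860 CPM (the count of a gene relative to its library's size, scaled by TMM factors) in WT 4, against 4.53 to 795.8 CPM in the other mice. Ncor1, the deleted gene on chromosome 11, averaged 134.7 ± 31.3 CPM (SD, n = 7) in WT and 50.55 ± 10.97 CPM (SD, n = 7) in IKO mice, and every IKO mouse was below every WT mouse. Reads were counted over all of its exons, deleted or not.

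The start regions of these genes are given first, as background to the changes below. RefSeq start sites on GRCm38.p6 were at hand for 9 of the 10 genes, all but Sdhc, each with 250 bases before and 50 after the start. These starts are not always those of the gene spans in the files. The RefSeq start of Sdha lies 40 bases inside the span, that of Sdhd 37 bases outside it, and that of Sucla2 27467 bases inside it. On both strands, 4 motifs were searched by their letters. The NRF-1 core, GCGCA and GCGC with any 1 base between them and known from promoters of respiratory chain genes, was in 4 of the 9 (Sdha, Sdhd, Sdhaf4 and Sucla2) and in 4.6% of all 32851 promoters. The ETS and GABP core CCGGAAG was in 4 of the 9 (Sdhb, Sdhd, Sdhaf1 and Sdhaf2) and in 8.86% of all promoters. The ERR element TGACCTTG was in Sdhd only among the 9, and in 1.56% of all. The PPAR element was searched only as a perfect repeat, AGGTCA repeated with any 1 base between. It was in 0 of the 9 and in 0.0396% of all, 13 of 32851. Letters this rare would hardly be met in 9 windows, so this 0 does not show that PPAR sites are absent. No match of 1 motif overlapped a match of another in these 9 windows. In 8 of the 9 the share of G and C was above the median of all promoters, 52.7% (58.7% to 76.7%, against 51% in Suclg1), and matches to GC-rich letters occur more often in such sequence. Motif matches did not go with the calls given below. Suclg1 and Suclg2, both called as higher in IKO mice, held none of the 4 motifs. Sdhb, Sdhaf1, Sdhaf2, Sdhaf4 and Sucla2, none of them called, each held at least 1. The stretches below were picked by fold change. Sdha and Sdhd had the largest changes and varied together in WT but not in IKO mice (Pearson r = 0.995 and 0.08), while Sucla2 holds the same motif and was not called as changed. Capitals mark the motif, and each reads 5′ to 3′ along the gene.
Sdha, NRF-1 core, chr13:74350319-74350348, minus strand: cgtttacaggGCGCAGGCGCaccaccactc
Sdha, NRF-1 core, chr13:74350276-74350305, minus strand: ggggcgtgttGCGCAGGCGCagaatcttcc
Sdha, NRF-1 core, chr13:74350231-74350260, minus strand: gcgactcggtGCGCAAGCGCagtctgtcgc
Sdhd, NRF-1 core, chr9:50603909-50603938, minus strand: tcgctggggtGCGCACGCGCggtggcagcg
Sdhd, ETS and GABP core on the opposite strand, chr9:50603877-50603906, minus strand: ccgtctcctgcCTTCCGGttcacgcttcag
Sdhd, ERR element, chr9:50603800-50603829, minus strand: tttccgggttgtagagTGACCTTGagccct
Sucla2, NRF-1 core on the opposite strand, chr14:73552759-73552788, plus strand: ctgcgtctctGCGCCTGCGCggtgcccagg
Sdha held the NRF-1 core 3 times, each within 100 bases before its RefSeq start, and the one nearest to the start lies inside the span that the files give. A match is a run of letters and not a measured binding site, and no binding was measured in these mice.

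All 10 genes had a higher fitted level in IKO than in WT mice, and 5 of them passed the test. The log2 fold changes (IKO over WT) ran from 0.13 for Sdhaf2 to 0.92 for Sdhd, with a median of 0.52 against -0.09 over all 13846 genes tested. Counts were tested with edgeR by quasi-likelihood, with adjusted p-values by Benjamini-Hochberg over all genes. At a threshold of 0.05, Sdha, Sdhc, Sdhd, Suclg1 and Suclg2 were higher in IKO mice and 0 members were lower. Among all genes tested, 4.38% were called higher and 4.28% lower, 8.67% in either direction. A fold change above 0 was found for 10 of 10 members and 43.5% of all genes. The genes that passed are enzyme subunits, 3 of the 4 of succinate dehydrogenase and 2 of the 3 of succinyl-CoA ligase, while 0 of the 3 assembly factors passed. In RNA of whole scrapings, more cells of a type and more RNA per cell cannot be told apart.

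The number of members called rested on which mice were in the test. With 1 mouse left out it was 5 without WT 6 or IKO 6, 4 without WT 5, 3 without WT 1 or WT 2, 2 without IKO 3, and 1 without each of the other mice (WT 3, WT 4, WT 7, IKO 1, IKO 2, IKO 4, IKO 5 and IKO 7). That 1 gene was Sdhd each time, and the fold changes of the 5 genes lay between 0.50 and 1.01 on the log2 scale in these 14 fits. Without IKO 4, WT 3 and WT 4 together the count was 0, and the log2 fold change of Sdhd was then 0.81 (edgeR adjusted p = 0.061). With library totals alone as the scaling the count was also 0, and the fold changes of Sdhaf1, Sdhaf2, Sdhaf4 and Sucla2 were then below 0. That scaling moved the median of all genes by -0.40 on the log2 scale, and relative to the median the members lay between 0.23 and 1.00 under it and between 0.22 and 1.01 with TMM factors. The TMM factors went with genotype in part, at 0.931 to 1.53 in WT (median 1.10) and 0.579 to 0.967 in IKO mice (median 0.929).

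**Figure D1:**
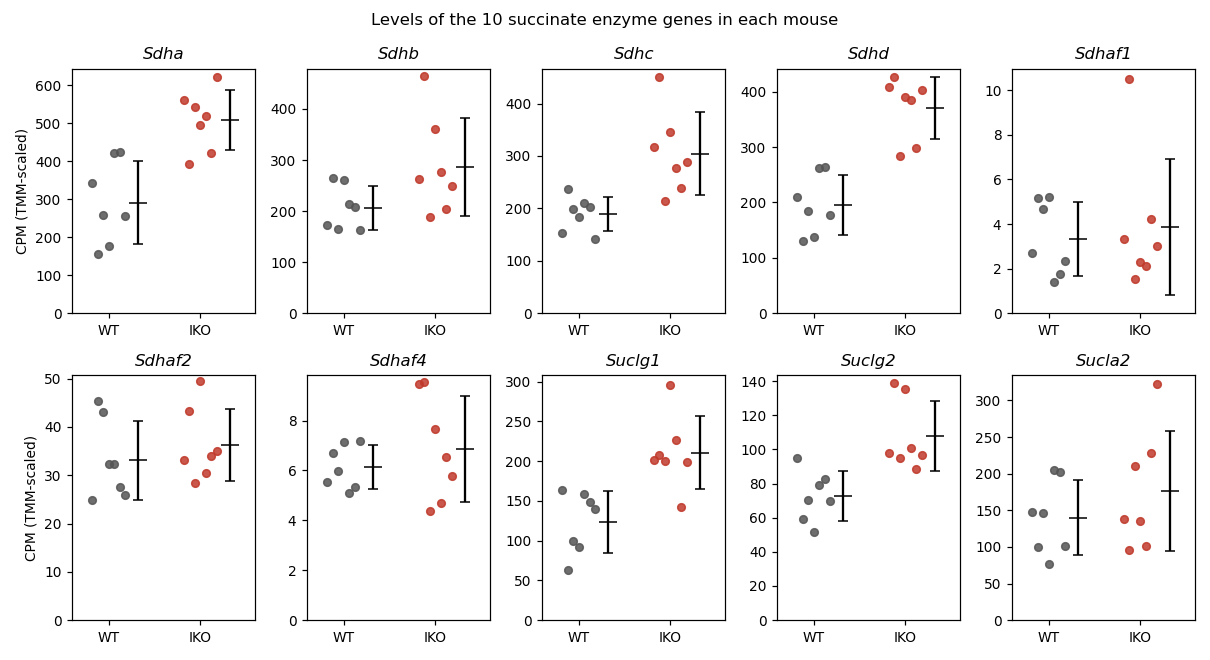
Level of each of the 10 genes in every mouse, in CPM scaled by TMM factors, with WT mice in grey and IKO mice in red, and the mean and SD (n = 7) beside each group. The genotypes do not overlap for Sdhd, overlap in part for Sdha, Sdhc, Suclg1 and Suclg2, and lie over each other for the 3 assembly factors.

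Sdhd, a membrane anchor of succinate dehydrogenase that helps to bind ubiquinone and heme, changed the most. It lies on chromosome 9 from 50596357 to 50603812 (mm10, minus strand). Its level was 131 CPM in the lowest, 184 in the median and 264 in the highest WT mouse, and 284, 390 and 426 CPM in IKO mice. The genotypes did not overlap, as for 1.83% of all genes tested in this direction, and Sdhd was the only member of which this was true. The fold change was 1.90 (95% confidence interval 1.43 to 2.51, edgeR adjusted p = 0.012). An exact two-sided permutation test over all divisions of the mice gave p = 0.000583, the smallest it can give. Any gene without overlap gets this p, so it adds nothing to the lack of overlap. Sdhd was called in all 14 fits with 1 mouse left out.

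Sdhc, the other membrane anchor, lies on chromosome 1 from 171127165 to 171150603. Its level was 142 CPM in the lowest, 198 in the median and 237 in the highest WT mouse, against 214, 288 and 451 CPM in IKO mice. In 6 of 7 IKO mice it was above the highest WT mouse, and the exception was IKO 3. Sdhc was 1.61-fold higher in IKO mice (95% interval 1.23 to 2.11, edgeR adjusted p = 0.036).

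Sdha carries the FAD and the site at which succinate is oxidized. It lies on chromosome 13 from 74322254 to 74350280. WT mice spread from 155 over a median of 259 to 425 CPM and IKO mice from 394 over 520 to 621 CPM. WT 5 and WT 6, at 422 and 425 CPM, reached the lower IKO mice, IKO 2 at 394 and IKO 6 at 422 CPM, and WT 2 and WT 4 were the lowest at 155 and 178 CPM. It was 1.75-fold higher in IKO mice (95% interval 1.24 to 2.46, edgeR adjusted p = 0.045), and with 1 mouse left out the adjusted p lay between 0.033 and 0.087.

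Sdhb holds the iron-sulfur clusters that carry electrons from Sdha to the membrane, and it was the only subunit of succinate dehydrogenase that did not pass. It lies on chromosome 4 from 140961203 to 140979193. Its level was 163, 207 and 265 CPM in the lowest, median and highest WT mouse and 189, 264 and 464 CPM in IKO mice. Only IKO 2, IKO 4 and IKO 5 were above the highest WT mouse. The fold change was 1.39 (95% interval 1.02 to 1.90, edgeR adjusted p = 0.148, unadjusted p = 0.041), so a rise of the size seen for Sdhc lies within its interval.

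Succinyl-CoA ligase pairs Suclg1 with either Suclg2, which gives the form that makes GTP, or Sucla2, which gives the form that makes ATP. Suclg1, on chromosome 6 from 73248382 to 73276911, had 62.9, 139 and 163 CPM in the lowest, median and highest WT mouse and 142, 202 and 296 CPM in IKO mice. Here 6 of 7 IKO mice were above the highest WT mouse, all but IKO 6. This was a fold change of 1.71 (95% interval 1.23 to 2.36, edgeR adjusted p = 0.044), or 0.77 on the log2 scale, against 0.46 with limma-voom and sample weights (adjusted p = 0.084).

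Suclg2, on the same chromosome from 95473009 to 95718800, had 51.7, 70.6 and 95.1 CPM in WT and 88.4, 97.9 and 139 CPM in IKO mice. All IKO mice but IKO 6 were above the highest WT mouse, several of them by a small margin. Suclg2 was 1.48-fold higher in IKO mice (95% interval 1.17 to 1.89, edgeR adjusted p = 0.044), or 0.57 on the log2 scale, against 0.31 with limma-voom and sample weights (adjusted p = 0.1003). A processed pseudogene, Gm15163, matches 1302 bases of a Suclg2 transcript at 98.9% identity. It held 1006 counts over the 14 mice, against 10558 in WT and 12090 in IKO mice on Suclg2, so the split of reads between them is uncertain.

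Sucla2, on chromosome 14 from 73525319 to 73596142, had 77.0, 146 and 206 CPM in the lowest, median and highest WT mouse and 95.9, 138 and 322 CPM in IKO mice. Within the IKO group IKO 3, IKO 6 and IKO 7 had 210, 228 and 322 CPM, all above the WT mice, while the other 4 had 95.9 to 138 CPM. The fold change was 1.26 (95% interval 0.81 to 1.95, edgeR adjusted p = 0.473). The 2 IKO mice with the lowest Sucla2, IKO 2 and IKO 5, had Suclg2 levels above all WT mice. So had every other IKO mouse but IKO 6, those with high Sucla2 among them.

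The assembly factors put the cofactors into the enzyme. Sdhaf2, which helps to attach FAD to Sdha, had 25.0, 32.3 and 45.4 CPM in the lowest, median and highest WT mouse and 28.4, 33.9 and 49.4 CPM in IKO mice. Its fold change was 1.10 (95% interval 0.85 to 1.42, edgeR adjusted p = 0.635), and the interval leaves out the fold change of Sdhd.

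Sdhaf4, a chaperone of Sdha before it joins Sdhb, had 5.08, 5.98 and 7.18 CPM in WT and 4.38, 6.54 and 9.55 CPM in IKO mice, and the lowest and the highest value were both in IKO mice. Its fold change was 1.12 (95% interval 0.82 to 1.53, edgeR adjusted p = 0.635). Sdhaf1, which serves the iron-sulfur clusters of Sdhb, had 1.41, 2.70 and 5.22 CPM in WT and 1.55, 3.01 and 10.5 CPM in IKO mice. It had as few as 21 counts in a mouse, which gives a counting error of 21.8%, and its fold change was 1.17 (95% interval 0.62 to 2.21, edgeR adjusted p = 0.758). Its highest value was in IKO 2, and without this mouse its log2 fold change was -0.26. The gene E130208F15Rik overlaps Sdhaf1 on the opposite strand, matches 1733 bases of its transcript in full, and was at 0 counts in all 14 mice. Whether the counting used the strand is not given in the sources used here. None of the 3 assembly factors passed the test, and whether they differed from the subunits was not tested.

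Per gene length, in the deposited FPKM, the subunits of succinate dehydrogenase stood at the top and the assembly factors at the bottom in both genotypes. These lengths need not be those of the transcripts present, and the order depends on them. For Sdhaf1 the length, 2490 bases, is its whole span, and its RefSeq start lies 1520 bases inside that span. In WT mice the order of mean FPKM was Sdhd (156 ± 44.1, SD, n = 7), Sdhb (90.2), Sdha (69.1), Sdhc (57), Sucla2 (34.4), Suclg1 (26.2), Suclg2 (15.4), Sdhaf2 (10.4), Sdhaf4 (6.86) and Sdhaf1 (1.3). In IKO mice Sdhd stood at 302 ± 46.8 FPKM (SD, n = 7) and above Sdhb, at 129 FPKM, in 7 of 7 mice, against 5 of 7 WT mice. Sdhb and Sdha could not be ranked, since Sdhb had the higher FPKM in 4 of 7 WT and 2 of 7 IKO mice. Suclg1 and Sucla2 could not be ranked in IKO mice either, at 45.8 and 44.2 FPKM, with Suclg1 the higher in 4 of 7 mice. The step from Sdhc down to the ligase subunits held in 7 of 7 mice of each genotype.

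The subunits of succinate dehydrogenase are needed in fixed proportions. Suclg2 and Sucla2 are alternative partners of Suclg1, so no fixed proportion is assumed among the ligase genes. For both enzymes the ratios between genes were compared within each mouse, where the scaling of the library drops out. Of 9 log2 ratios, 0 differed between the genotypes after Benjamini-Hochberg adjustment (exact two-sided permutation test, adjusted p from 0.278 to 0.62, smallest unadjusted p possible 0.000583), and 1 was under an unadjusted 0.05. That was Sdhb to Sdhc, with a mean log2 ratio of 0.12 ± 0.24 (SD) in WT and -0.11 ± 0.14 (SD) in IKO mice (n = 7 each, exact permutation p = 0.0437, adjusted p = 0.278). All 7 IKO mice were below the WT median of this ratio, though the genotypes overlapped. The ratio of Sdhb to Sdhd was lower in IKO mice by -0.52 on the log2 scale (exact permutation p = 0.0618, adjusted p = 0.278), and 2 of 7 IKO mice were above the WT median. Sdha to Sdhd differed by -0.07 (adjusted p = 0.62). A p that misses the threshold does not show that the ratios were the same, and the spread was wide, with an SD of 0.84 in IKO mice for each ratio to Sucla2.

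**Figure D2:**
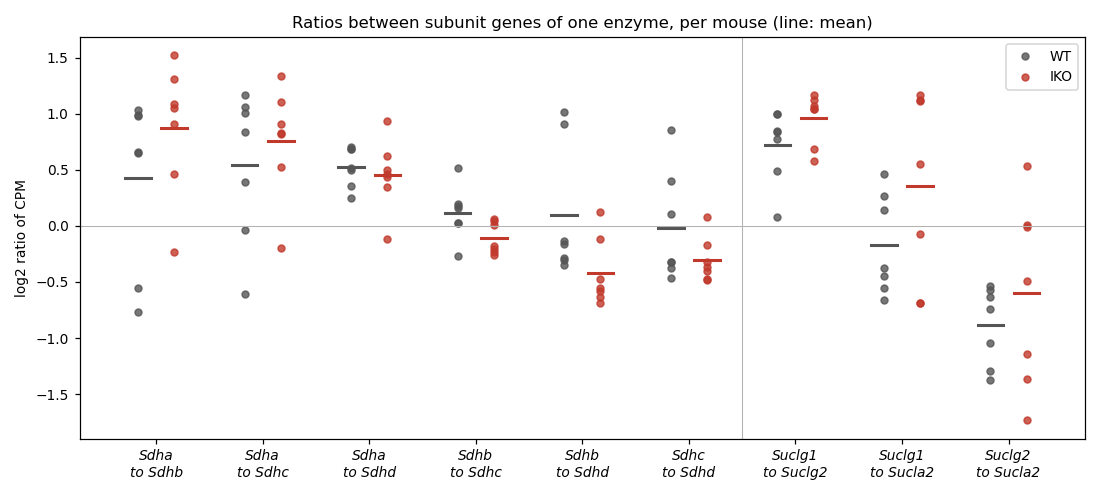
Log2 ratio of CPM between subunit genes of succinate dehydrogenase (left of the line) and of succinyl-CoA ligase (right), with 1 point per mouse, WT in grey and IKO in red, and a bar at the mean. The IKO points of Sdhb to Sdhc all lie below the WT median, WT 2 and WT 4 stand apart in the ratios of Sdha and Sdhd to Sdhb, and the ratios to Sucla2 spread widest in IKO mice.

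The members did not vary as 1 block between mice of the same genotype. Over the 45 pairs, the correlations of log2 CPM after taking off each genotype's mean are given as a description, and the points of a pair come from the same libraries. Sdhb and Sdhc varied together in both genotypes (Pearson r = 0.864 over 14 mice, Spearman rho = 0.886, 0.729 without the 2 mice farthest from the median). Sdha and Sdhd had r = 0.813 over 14 mice (rho = 0.719, 0.647 without the 2 farthest), which was 0.995 in WT and 0.08 in IKO mice, and 0.522 in IKO mice without IKO 2. Sdha and Sdhb did not rise together, with r = -0.383 (rho = -0.213, -0.114 without the 2 farthest). In WT mice the ligase genes followed Sdha, with r = 0.898 for Suclg1, 0.857 for Suclg2 and 0.909 for Sucla2. In IKO mice Suclg2 followed Sdhb instead (r = 0.928), and Sucla2 ran against it (r = -0.692, and -0.547 without IKO 2). The likeness of Sdhaf1 to Sdhb in IKO mice rested on IKO 2, with r = 0.617 with and -0.033 without that mouse. Whether these correlations differ between the genotypes was not tested.

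**Figure D3:**
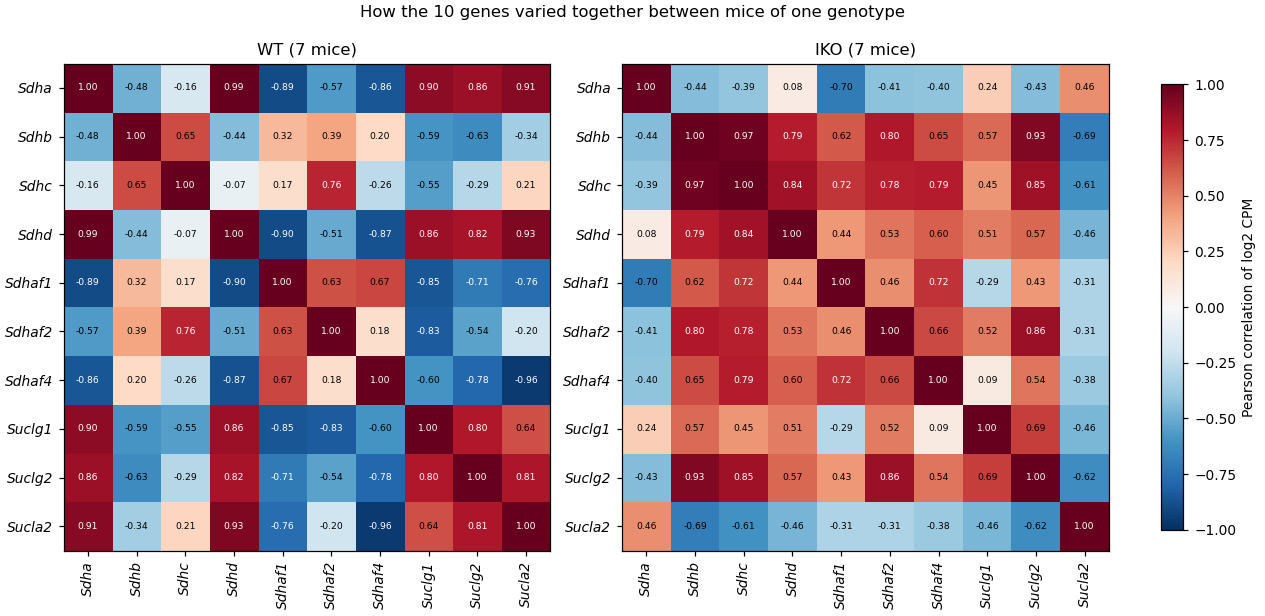
Pearson correlation of log2 CPM between each pair of the 10 genes, over the 7 WT mice (left) and the 7 IKO mice (right), from -1 in blue to 1 in red. WT mice show a block of Sdha, Sdhd and the ligase genes, while in IKO mice Sdhb, Sdhc, Sdhd, Suclg2 and the assembly factors group (Sdhaf1 through IKO 2). There Sucla2 runs against Sdhb, Sdhc, Sdhd and Suclg2, less so without IKO 2 (r = -0.324 to -0.547, not drawn). Against the assembly factors it is weaker (r = -0.306 to -0.375), and without IKO 2 its r with Sdhaf1 is 0.278.

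Single mice carried part of this. WT 2 and WT 4 were the lowest 2 for Sdha, Sdhd, Suclg1 and Suclg2 among WT mice, but the highest 2 of them for Sdhb, at 265 and 261 CPM. WT 2 had the highest summed level of 9 enterocyte markers, 89620 CPM, and WT 4 the highest smooth muscle level. Most of the sum in WT 2 was Apoa1 (41490 CPM) and Fabp2 (30940 CPM). Among WT mice, Vil1, Alpi and Apoa4 were also highest in WT 2, while Epcam, Cdh1, Slc10a2 and Fabp6 were highest in other mice. IKO 2 was the highest mouse for Sdhb (464 CPM), Sdhc (451 CPM), Sdhd (426 CPM), Suclg2 (139 CPM) and Sdhaf1 (10.5 CPM) and the lowest IKO mouse for Sdha and Sucla2. The part that the make-up of a scraping had in these values was not tested. Among all other genes tested, those whose variation was most like the mean of the 4 succinate dehydrogenase subunits were Prdx1, a peroxidase (r = 0.941 over 14 mice), Akr1a1, an aldehyde reductase (r = 0.935), Vdac1, the main channel of the outer mitochondrial membrane (r = 0.926), Vamp3, a vesicle fusion protein (r = 0.913) and Cpped1, a phosphatase (r = 0.900), against a median r of -0.02 over all genes.

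The genes around these enzymes were read from lists by role. Of 9 genes that supply succinyl-CoA, 0 passed in either direction, with a median log2 fold change of 0.29. Ogdh and Dlst, subunits of the 2-oxoglutarate dehydrogenase complex, had log2 fold changes of 0.30 and 0.29 (edgeR adjusted p = 0.34 and 0.286). Mmab, which prepares the cobalamin cofactor of methylmalonyl-CoA mutase, had 0.61 (adjusted p = 0.146).

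Of 6 other enzymes that release succinate or use succinyl-CoA, 2 were higher in IKO mice and 0 lower. Acot4, a peroxisomal thioesterase that splits succinyl-CoA into succinate and CoA, had 32.5, 37.1 and 61.6 CPM in the lowest, median and highest WT mouse and 112, 118 and 164 CPM in IKO mice. The genotypes did not overlap, and its log2 fold change of 1.55 (SE 0.18, edgeR adjusted p = 0.000238) was above that of every member. Acot6 and an antisense gene, 4732463B04Rik, match parts of the Acot4 transcript at 97.1% and 99.8% identity and held 345 and 568 counts in all. Alas1, which joins succinyl-CoA and glycine in the first step of heme synthesis, had 65.4, 88.0 and 132 CPM in WT and 209, 260 and 373 CPM in IKO mice, with a log2 fold change of 1.55 (SE 0.20, edgeR adjusted p = 0.000547). Oxct1, which moves CoA from succinyl-CoA to acetoacetate and so frees succinate, had 0.76 (adjusted p = 0.101). Aldh5a1 and Abat, of the path from GABA to succinate, had -0.02 and -0.08 (adjusted p = 0.967 and 0.863).

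Among adjoining enzymes of the tricarboxylic cycle, Fh1, the fumarase that takes up the product of succinate dehydrogenase, had a log2 fold change of 0.32 (edgeR adjusted p = 0.301), and Mdh2, the malate dehydrogenase after it, had 0.71 (adjusted p = 0.0713). Of 15 genes that supply flavin and iron-sulfur clusters, 1 was higher, Iba57, of the late steps of iron-sulfur cluster assembly (log2 fold change 0.67, adjusted p = 0.0426). Isca1, of the same steps, had 0.58 (adjusted p = 0.0585), Glrx5 0.67 (adjusted p = 0.0691) and Sdhaf3, an assembly factor for Sdhb that is no member of the set above, -0.31 (adjusted p = 0.391).

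Of 11 genes of the mitochondrial membranes, import and chaperones, 10 had fold changes above 0, with a median of 0.45, and 1 passed, Vdac1 (log2 fold change 0.54, edgeR adjusted p = 0.0352). The medians of the succinate dehydrogenase and ligase subunits were 0.74 and 0.57. Of 3 regulators of succinate dehydrogenase tested (Trap1, Sirt3 and Sirt5), 0 passed, and Acod1, whose product itaconate inhibits the enzyme, did not pass the filter on low counts.

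Among genes of succinate transport and sensing, 0 of the 3 tested passed. Slc25a10, the dicarboxylate carrier of the inner mitochondrial membrane, had 222 ± 66.7 CPM (SD, n = 7) in WT and 338 ± 87.8 CPM (SD, n = 7) in IKO mice (log2 fold change 0.61, edgeR adjusted p = 0.0803). Slc13a2, which takes up dicarboxylates at the cell surface, had -0.62 (adjusted p = 0.194), and Sucnr1, the succinate receptor, had -1.03 at under 1.4 CPM in every mouse (adjusted p = 0.19). Slc13a3 and Slc13a5 did not pass the filter on low counts.

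**Figure D4:**
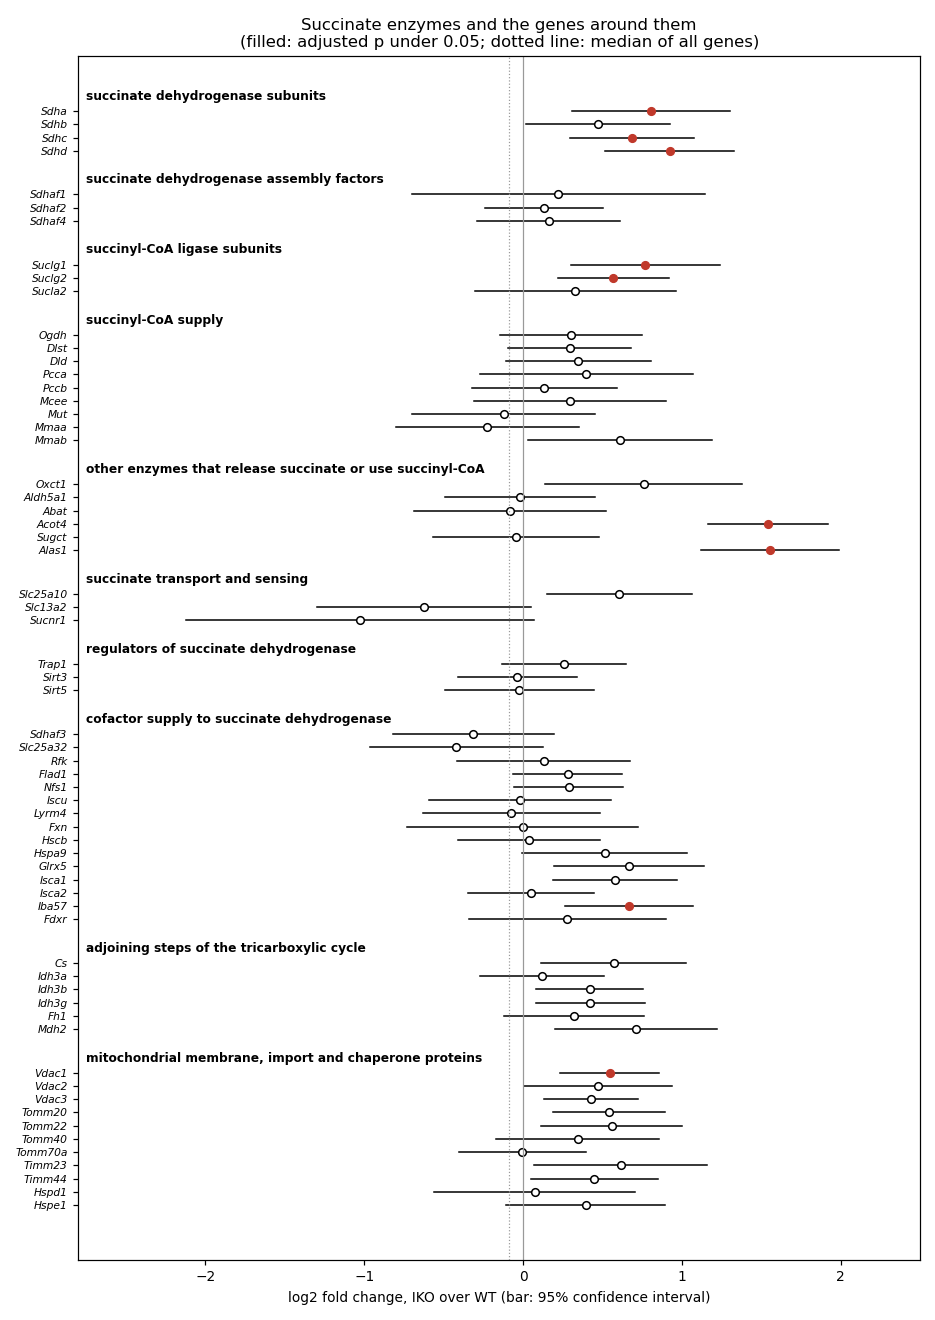
Log2 fold change (IKO over WT) with its 95% confidence interval for the 10 genes and the genes around them, grouped by role, where filled points have an edgeR adjusted p under 0.05 and the dotted line is the median of all genes, -0.09. The 5 members called lie between 0.57 and 0.92, and Acot4 and Alas1, both at 1.55, lie farthest to the right.

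Several members start close to another gene, and these neighbours were chosen by position after the fit had been run. Timm8b, a small chaperone of protein import, starts 97 bases from Sdhd on the opposite strand, at 50603910 on chromosome 9, so that the NRF-1 core printed for Sdhd lies over the first bases of Timm8b. It had 29.9, 35.6 and 46.8 CPM in the lowest, median and highest WT mouse and 37.9, 49.7 and 82.2 CPM in IKO mice, and it was also higher (log2 fold change 0.62, SE 0.18, edgeR adjusted p = 0.0436). Between mice of a genotype it did not follow Sdhd (r = 0.061 over 14 mice, as a description). The log2 fold change was 0.07 for Ccdc127, 28 bases from Sdha (edgeR adjusted p = 0.817), and -0.53 for Cpsf7, 34 bases from Sdhaf2 (adjusted p = 0.0994). Of these 3 neighbours, 1 passed the test.

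Markers of the cell types in the scrapings are given beside these results. Enterocyte markers summed to 22170 to 89620 CPM in WT and 46540 to 65360 CPM in IKO mice, with 7 of 9 above 0, a median log2 fold change of 0.30, and 0 passed. Crypt and cycling cell markers summed to 102 to 335 CPM in WT and 78.4 to 207 CPM in IKO mice. Of these, 5 of 5 were below 0, with a median log2 fold change of -1.03, and 0 passed. Stromal and endothelial markers summed to 8.53 to 248 CPM in WT and 9.35 to 34.1 CPM in IKO mice (5 of 6 below 0, median -1.60). Immune markers summed to 130 to 724 and 140 to 463 CPM (8 of 8 below 0, median -0.42). Smooth muscle markers summed to 5.08 to 10860 and 4.53 to 796 CPM (6 of 6 below 0, median -3.10, with WT 4 far above the other mice). In each of these lists 0 passed. Secretory cell markers summed to 2038 to 7856 CPM in WT and 3602 to 7784 CPM in IKO mice (5 of 8 below 0, median -0.20), with 0 of 8 passed. Of all 13846 genes tested, 7826 were below 0, with a median of -0.09. Tagln and Ms4a1 were at 0 in at least 1 WT mouse. The part of these cell types in the changes of the succinate enzymes was not tested.

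**Figure D5:**
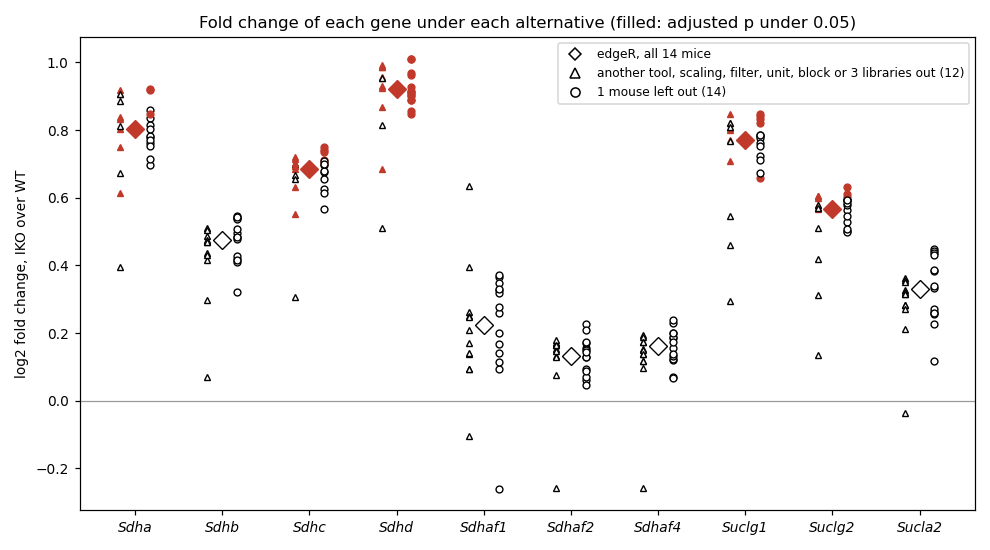
Log2 fold change of each gene with all 14 mice (diamonds), under 12 other tools, scalings, filters, units or sets of libraries (triangles) and with 1 mouse left out (14 circles), filled where the adjusted p was under 0.05. Sdhd is filled in all circles, the other 4 genes called lose it in part, and the lowest triangle of most genes is the scaling by library totals alone.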

How the data were processed

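Ileum mucosa RNA of 7 WT and 7 IKO mice was measured, with genotype and number taken from the sample titles. According to the methods and the submitters' processing notes, 1 µg RNA per sample was made into libraries with a NEBNext kit and sequenced as 150-base paired-end reads, aligned with HISAT2 2.0.5 to mm10, counted with featureCounts 1.5.0-p3 and compared with DESeq2 1.16.1. The deposited counts are whole reads per gene without normalization. The deposited FPKM equal, by test on the values, the count per gene length times a constant of the sample. Strandedness and filters are not given in the sources used here.

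The counts of 14749669 to 21557468 per mouse were filtered with filterByExpr, scaled by TMM and compared by genotype, with no other term, in edgeR 4.0.16 (glmQLFit, glmQLFTest, R 4.3.3). The p-values were adjusted by Benjamini-Hochberg over 13846 genes. Standard errors were taken as the absolute log2 fold change over the root of the F statistic. Intervals are at 95%. Log2 CPM add a prior count of 2. Counts were also simulated with the library sizes and mean gene levels of these data, but with the same dispersion (spread between mice) for every gene. There, 125 of 199 changed genes were called, with 7 of 132 calls on unchanged genes. The simulation held no outlying library such as IKO 4, so these rates need not be those of the real data. Counting error is 1 over the square root of the count and covers counting only.

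Alternatives were DESeq2 1.42.0, limma 3.58.1 (voom with sample weights, and FPKM on the log2 scale with 1 or 0.1 added, either unfiltered or for genes above 0.5 FPKM in at least 7 samples), RLE factors, library totals, mitochondrially encoded genes left out, counts unfiltered or of at least 10 in each sample, the sample number as a block, each mouse left out, and 3 libraries left out together. For ratios they were FPKM and a prior count of 0.5. Gene spans are those of the files, and 9 of the 10 match GENCODE M21 of GRCm38, while Sdhaf2 differs. Near copies were sought with BLAST 2.17.0 among transcripts (at least 90% identity over 200 bases). Named genes are the members, Ncor1, the genes of the role and marker lists and the 5 genes most like the mean of the succinate dehydrogenase subunits, and neighbours and near copies were added later. The members, lists and alternatives were chosen with earlier results of these data known. A few single genes are left unreported. Protein sequences and metabolite measurements were not analysed here.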

Additional observations from a re-analysis of the deposited data

Results flagged for a closer look

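In groups of 7 mice, a sample was marked where its gap to the nearest other, divided by the range of the group, was above Dixon's critical value at 95%. Of 42 groups examined (the 10 gene levels, the 9 ratios, the mitochondrially encoded share and the TMM factor, in each genotype), 2 were past it, and chance gives about 2.1. Both were IKO 4. The 2 measures come from the same library and are not independent, so the number given by chance does not tell whether IKO 4 stands apart. The log2 share of counts on mitochondrially encoded genes in IKO 4 had a gap of 0.791 of the range. It was 50.3% of the counts, against 3.49% to 6.1% in the other IKO mice. The log2 TMM factor of IKO 4 had a gap of 0.833 (a factor of 0.579). No level of the 10 genes and no ratio was past the critical value. In IKO 4, Sdha stood at 497, Sdhd at 390 and Suclg1 at 296 CPM. Without IKO 4 the count of members called was 1, Sdhd, with a log2 fold change of 0.91 (edgeR adjusted p = 0.018).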

How the results depend on the processing

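The count of genes called, 1200 (607 higher and 593 lower), was 2445 with DESeq2, 1889 with voom, 3380 with library totals alone (195 higher and 3185 lower), 508 without a filter, 614 on unfiltered FPKM, 433 without IKO 4, WT 3 and WT 4, and 515 to 1371 with 1 mouse left out. On filtered FPKM it was 1036, of which 708 were higher. The count of members called, 5, was 3 with voom, 0 with library totals alone, 1 without a filter, 2 on unfiltered FPKM, 0 without the 3 libraries and 1 to 5 with 1 mouse left out. The unfiltered fits tested 29041 genes, and the fits without libraries had fewer samples. The cause of the losses was not tested for any of these fits. With library totals alone, the log2 fold changes were -0.10 for Sdhaf1, -0.26 for Sdhaf2, -0.26 for Sdhaf4 and -0.036 for Sucla2. With 1 mouse left out, that of Sdhaf1 ran from -0.26 (without IKO 2) to 0.37, and the difference in log2 ratio of Sdha to Sdhd from -0.15 to 0.022 (without IKO 2). Over the 26 alternatives, the call was lost in 3 for Sdhd (adjusted p up to 0.090), 16 for Sdha (up to 0.261), 13 for Sdhc (up to 0.200), 15 for Suclg1 (up to 0.379) and 18 for Suclg2 (up to 0.629), and the direction of these 5 and of Sdhb held in all 26. The count of ratios called was 0 in all 18 alternatives. Sdhaf1 is limited by depth, with 21 to 178 counts per mouse.

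Mice of the same number were not shown to be paired: their deviations correlated at -0.305 to 0.232, 1 of 7 above 0.1, and 1 of 14 mice correlated best with its own number. With the number as a replicate block, 362 genes, 0 members and 0 ratios were called, and Sdhd had a log2 fold change of 0.95 (edgeR adjusted p = 0.054).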
